A study of Mus musculus with 24 samples.

Results

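Avil encodes advillin, an actin-binding protein of the villin and gelsolin family, and was examined here as a single gene out of 21938 protein-coding genes of the annotation. It was chosen by the fall of its pooled exonic coverage between day 0 and day 4 of DMSO treatment, so that fall is given as a description and was not tested. The cells were MEL cells, a mouse erythroleukemia line that is arrested as an erythroid precursor and resumes erythroid differentiation in DMSO. RNA-protein interactions were profiled by protein interaction profile sequencing (PIP-seq), in which formaldehyde-crosslinked RNA is digested with a nuclease either with its proteins in place (footprint library) or after the proteins have been removed (structure-only library).

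Every library came from MEL cells grown in the same medium and crosslinked, either undifferentiated (day 0, no DMSO) or after 2 or 4 days of DMSO. On each day the 4 kinds of library were the footprint and the structure-only library for a nuclease that cuts single-stranded RNA (ssRNase) and the same for one that cuts double-stranded RNA (dsRNase). Each of the resulting 12 groups held 2 replicates, which makes 24 libraries. The labels do not say whether the replicates came from separate cultures, and the whole study used 1 cell line.

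A protein-protected site (PPS) is a stretch of RNA with more reads in the footprint than in the matching structure-only library. Each day has 1 pooled list of PPSs, of 138689 PPSs before DMSO, 169575 after 2 days and 152513 after 4 days. Each PPS names the calls merged into it, and each call names its nuclease and replicate, so there were 4 call sets per day and 12 in all. A PPS carries a score from the authors' test, of which the lowest in all lists was 5.4. Read depth cannot be read from the lists. A change in the amount of an RNA and a change in protection per molecule cannot be told apart in them.

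Proteins of the villin and gelsolin family are built from gelsolin repeats that bind, cap or sever actin filaments, and several, advillin among them, add a villin headpiece at the carboxyl end that binds filamentous actin. Advillin is best known from peripheral sensory neurons. MEL cells are not such neurons. PPSs of 20 to 40 nt are left out of coverage below and were left out here. An erythroid list of 14 genes included Spi1, which is shut down as MEL cells differentiate. All 14 held an exonic PPS on some day, against 9550 of the 21938 protein-coding genes. So did 2 of 12 sensory neuron markers (Pou4f1 and Scn10a, both without such a PPS at day 0), 1 of 8 tuft cell markers (Gfi1b, which erythroid cells also use) and 0 of 5 Merkel cell markers.

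Avil (ENSMUSG00000025432.11) lies on the plus strand of chromosome 10, at chr10:127000709-127020994 in mm10. The transcript with the longest coding sequence has 20 exons and 19 introns. The exons of all 4 annotated transcripts together hold 3398 nt, the introns 16888 nt and the coding sequence (CDS) 2457 nt. No other gene on its strand shares an exonic position with it.

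The sequences below show where the day 0 PPSs of Avil began and ended relative to splice sites. They were read from the GRCm38 genome on the plus strand, and T stands for U in the RNA. Capitals mark exon bases and lower case marks intron bases. The first is the PPS that coincided base for base with exon 6, printed with 10 nt of intron on either side. The next 3 are the PPSs with the highest scores, each of which crossed an exon-intron boundary.
exon 6 (PPS at chr10:127007740-127007850): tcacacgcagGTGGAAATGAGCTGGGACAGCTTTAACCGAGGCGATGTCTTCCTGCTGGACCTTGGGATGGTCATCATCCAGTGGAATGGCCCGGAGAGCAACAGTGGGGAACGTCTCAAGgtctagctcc
exon 16 and intron 16 (chr10:127014156-127014352): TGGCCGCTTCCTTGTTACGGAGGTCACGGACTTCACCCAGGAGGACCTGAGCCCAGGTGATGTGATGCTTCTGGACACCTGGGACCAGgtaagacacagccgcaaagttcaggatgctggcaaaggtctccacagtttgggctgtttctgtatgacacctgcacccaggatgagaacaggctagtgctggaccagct
exon 17 and intron 17 (chr10:127016459-127016547): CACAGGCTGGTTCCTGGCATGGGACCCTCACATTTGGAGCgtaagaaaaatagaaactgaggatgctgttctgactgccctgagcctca
intron 11 and exon 12 (chr10:127010458-127010636): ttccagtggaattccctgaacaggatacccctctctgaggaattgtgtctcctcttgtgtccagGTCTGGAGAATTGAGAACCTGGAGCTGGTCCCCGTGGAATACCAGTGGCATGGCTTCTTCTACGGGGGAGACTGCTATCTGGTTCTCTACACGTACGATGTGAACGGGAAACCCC

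Avil held 37 PPSs before DMSO, 6 after 2 days and none after 4 days. Both day 0 replicates contributed, with calls of replicate 1 in 28 PPSs, of replicate 2 in 25 and of both in 16. By call set, 26 PPSs held a call of ssRNase replicate 1, 24 of ssRNase replicate 2, 9 of dsRNase replicate 1 and 5 of dsRNase replicate 2. The ssRNase sets therefore held most of the sites in both replicates, and 11 PPSs had calls from both nucleases. At day 2 the corresponding numbers were 1, 4, 1 and 0, each PPS resting on 1 call of 1 replicate. At day 4 all 4 call sets were empty over the gene.

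**Figure D1:**
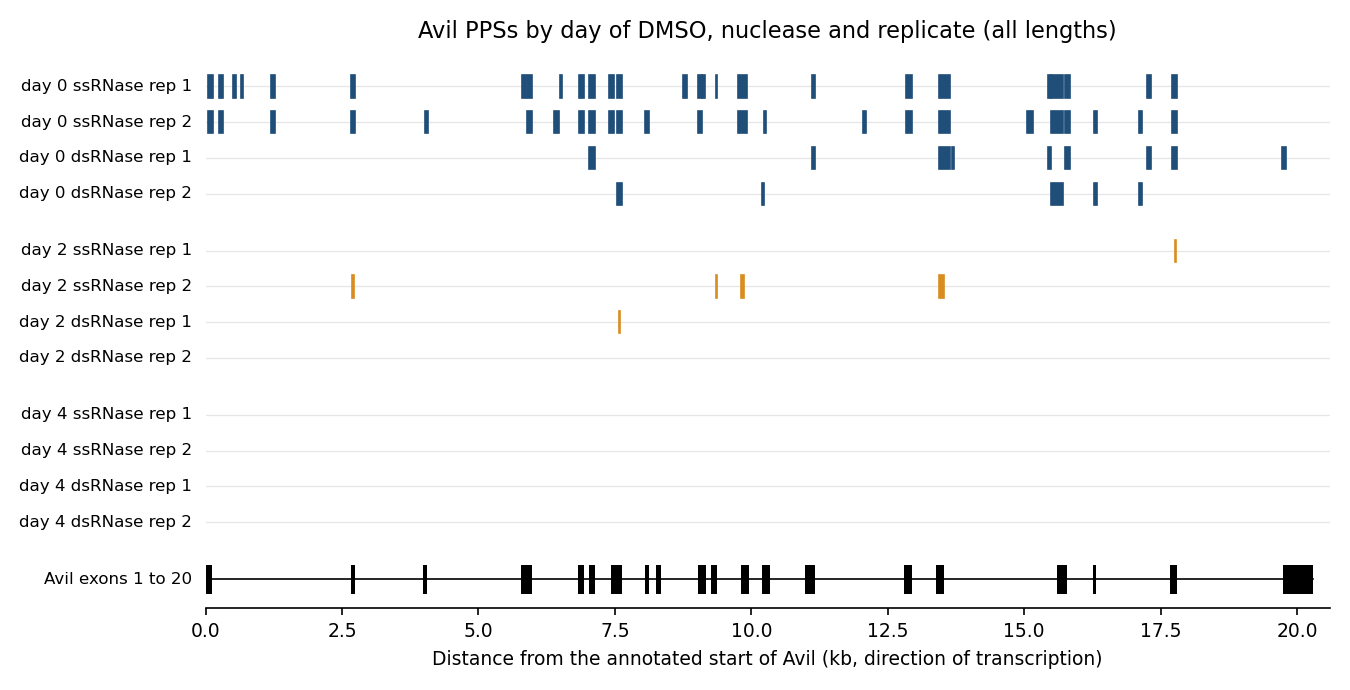
PPSs of all lengths along Avil, in kb from the annotated start in the direction of transcription, with 1 line per call set (day, nuclease, replicate) and the 20 exons as black boxes at the bottom; an outline widens each site slightly. The day 0 sites run along nearly the whole gene in the 2 ssRNase sets, 6 sites remain at day 2, and the 4 lines of day 4 are empty.

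Coverage was taken as the share of nucleotides that lie in a PPS, after PPSs of 20 to 40 nt, the size of a ribosome footprint, had been left out as the authors did. For the exons of Avil it was 42.5% in ssRNase replicate 1, 41.4% in ssRNase replicate 2, 12.7% in dsRNase replicate 1 and 7.33% in dsRNase replicate 2 at day 0. At day 2 it was 5.89% in ssRNase replicate 2 and 0% in the other 3 call sets, and at day 4 it was 0% in all 4. No call set of day 2 or day 4 reached the lowest of day 0. With both nucleases together, day 0 gave 44.0% in replicate 1 and 41.4% in replicate 2, day 2 gave 0% and 5.89%, and day 4 gave 0% in each.

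Pooled over the replicates, exonic coverage was 48.9% in undifferentiated cells, 5.89% after 2 days and 0% after 4 days. From day 0 to day 2 it fell by 43.0 percentage points, and the 4 pairings of a day 0 with a day 2 replicate gave changes from -44.0 to -35.6 points. From day 0 to day 4 it fell by 48.9 points, with pairings from -44.0 to -41.4 points. The pooled fall lies outside the latter range because the pooled sites include those called in only 1 replicate. PPS boundaries are shared by the calls merged into them, so the spread between replicates is understated. What was left at day 2 came from 1 ssRNase call set of replicate 2, and without that replicate the day 2 value was 0%.

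**Figure D2:**
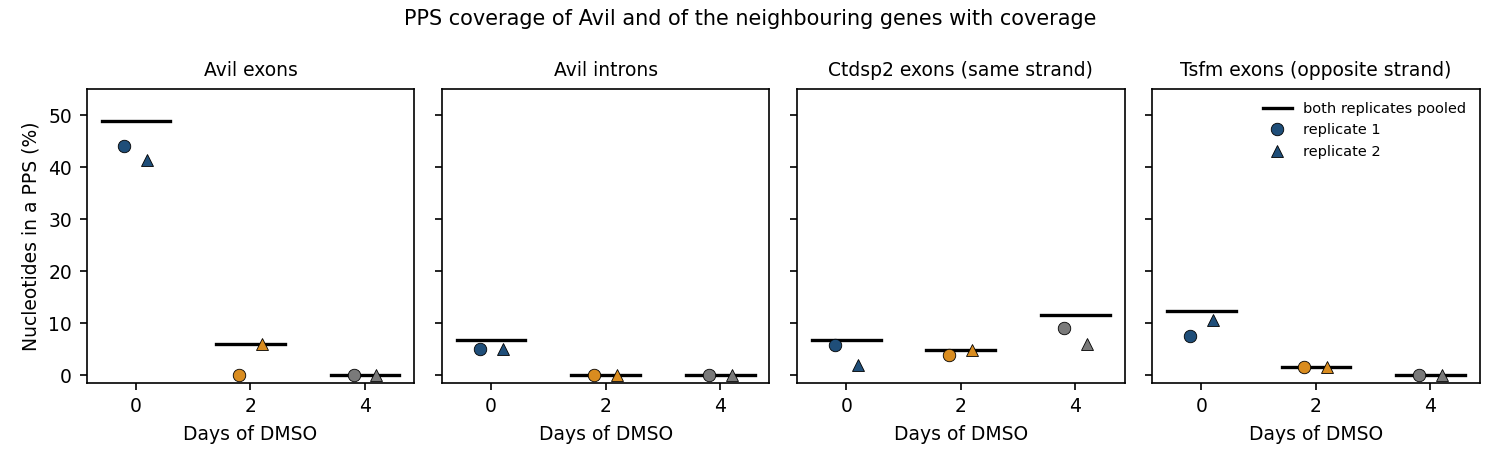
Percentage of nucleotides in a PPS (PPSs of 20 to 40 nt left out) by day of DMSO for the exons and introns of Avil and the exons of its neighbours Ctdsp2 and Tsfm; points are the 2 replicates and black lines the pooled lists. The Avil exons drop from 48.9% to 5.89% and 0%, Tsfm drops from 12.3% to 0%, and Ctdsp2 ends at 11.5%.

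A loss this complete was uncommon among genes with 10 or more exonic PPSs at day 0. Among 2089 protein-coding genes with 10 or more exonic PPSs at day 0 (Avil had 22), 29 or 1.39% had none at day 4, Avil among them. Among 6875 genes with exonic PPSs in both day 0 replicates, 494 or 7.19% had none at day 4. A lower coverage at day 4 in all 4 replicate pairings, which Avil also showed, was a common pattern found in 25.4% of the 9550 genes with an exonic PPS on any day. A higher coverage in all 4 pairings was found in 30.8% of them. Of these 9550 genes 4536 had lower and 4632 higher pooled coverage at day 4 than at day 0, and the median change was 0 points. Avil was selected on this contrast, so these shares place it and support nothing about it.

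Avil was one of the most densely covered genes at day 0, which its selection favoured. Because nothing was left at day 4, the fall by which it was chosen equals its day 0 coverage. Of 6537 genes with at least 500 exonic nt, at least 3 PPSs on some day and no exonic position shared with another gene, 30 had a higher exonic coverage at day 0, and the median was 8.06%.

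**Figure D3:**
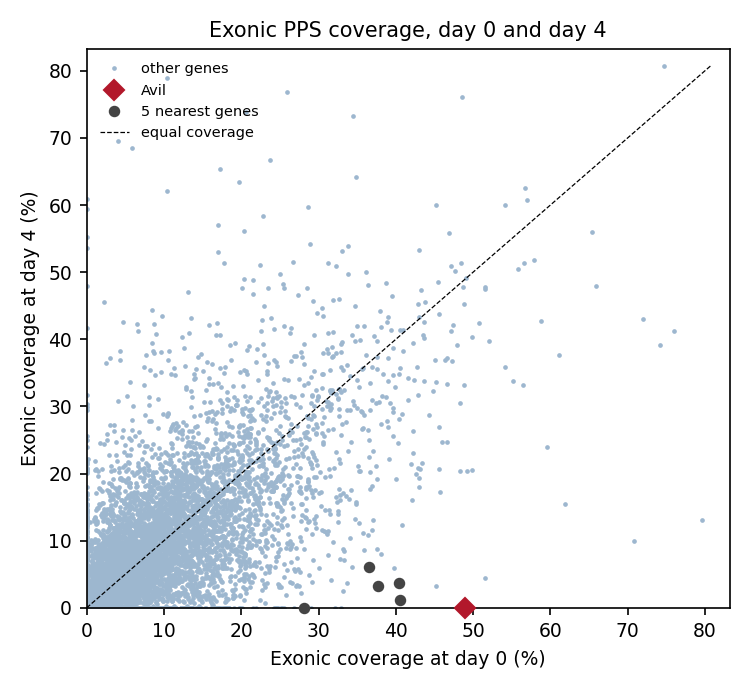
Pooled exonic coverage at day 0 (x axis, %) and day 4 (y axis, %) of the 6537 genes, each point a gene, with Avil as the diamond, the 5 genes nearest to it as dark circles and the line of equal coverage dashed. Avil lies on the x axis at 48.9%, to the right of its 5 nearest genes.

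The day 0 sites covered most of the exons. Of the 20 exons, 19 were touched by a PPS of any length, 12 of them in both replicates. Without the PPSs of 20 to 40 nt, 15 exons were covered over at least 50% of their length. Exon 6 was covered over 100%, exon 4 over 94.9%, exon 12 over 83.3% and exon 2 over 82.4%. Exons 6, 12 and 2 had the same value in both replicates because their PPSs merged calls of both, so this equality does not measure agreement. Exon 4 had 94.9% in replicate 1 and 51.8% in replicate 2. At the other end, exon 11 was covered over 18.8%, exon 20 over 9.72% and exon 9 not at all. Exon 13 held 2 PPSs, both in the 20 to 40 nt range.

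**Figure D4:**
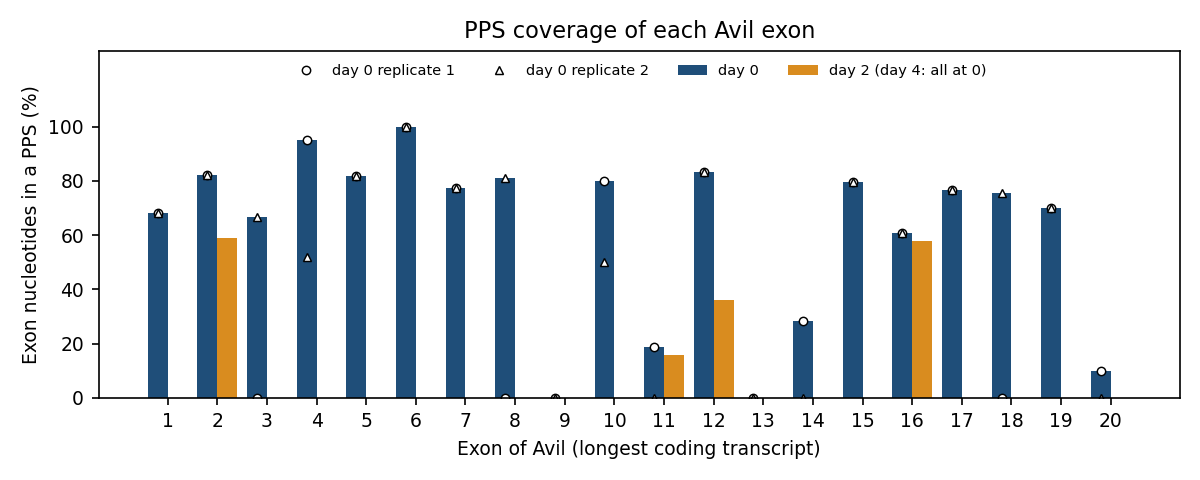
Percentage of each Avil exon in a PPS (PPSs of 20 to 40 nt left out), with day 0 as blue and day 2 as orange bars of the pooled lists, and the 2 day 0 replicates as circles and triangles. At day 0, 15 exons reach 50% or more; at day 2, 4 exons (2, 11, 12 and 16) keep some coverage, and day 4 is 0 throughout.

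Coverage at day 0 was uneven along the messenger RNA. The CDS was covered over 64.0% (57.3% in replicate 1 and 53.7% in replicate 2) and the 142 nt of the 5′ UTR over 62.7% in both replicates. The 5′ UTR values are equal because its sites merged calls of both replicates. None of the 434 nt of the 3′ UTR lay in a PPS on any day. Such a bare 3′ UTR was unusual among heavily covered genes. Of 1773 genes with 10 or more exonic PPSs at day 0 and a 3′ UTR of at least 300 nt, 8.86% had no 3′ UTR coverage at day 0, and the median was 13.4%. These genes were not matched to Avil for 3′ UTR length. Within the CDS, the 1228 nt at the 5′ end were covered over 73.2% (63.9% and 61.0% in the replicates) and the remaining 1229 nt over 54.8% (50.6% and 46.4%). In both replicates the 5′ part was higher, though the replicates share the boundaries of merged sites.

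Introns were covered as well, though far less. At day 0, 6.81% of the intronic nt of Avil lay in a PPS, with 5.06% in replicate 1 and 4.91% in replicate 2, and the value was 0% in every call set of days 2 and 4. The day 0 value was 4.20% with scores of 10 or more, 3.16% with calls of both replicates and 3.06% with dsRNase calls only. Sites touched 12 of the 19 introns. The highest-scoring site that lay in an intron alone was in intron 1, at chr10:127001916-127001987 with a score of 27.33, and was called by ssRNase in both replicates. A second intron 1 site at chr10:127000946-127001020 had a score of 26.22 and the same 2 calls. Intron 16 was covered over 20.4% (15.6% and 15.2% in the replicates), the highest of the introns.

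Sites that cross an exon-intron boundary, as in the sequences printed above, were frequent in Avil. Of its 37 day 0 PPSs, 13 lay in exons only, 11 in an exon and an intron, and 13 in introns only. The share crossing a boundary was 29.7% in Avil and 5.31% over the 128142 day 0 PPSs in protein-coding genes, while the intron-only shares were close, at 35.1% and 38.8%. The genes compared were not matched to Avil for exon length or number of introns. These PPSs contained 6 of the 19 5′ splice sites and 5 of the 19 3′ splice sites of Avil, and 10 introns had at least 1 of their ends in a PPS. Of these splice sites, 4 of each kind lay in a PPS called in both replicates. Of the 24 day 0 PPSs with exonic bases, 4 began or ended exactly at an exon end (16.7%, near the 11.7% over all genes).

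The highest score in Avil, 48.79, belonged to the exon 16 and intron 16 site printed above, which is 197 nt long with 88 exonic bases. It combined 4 calls, 2 of ssRNase replicate 1, 1 of ssRNase replicate 2 and 1 of dsRNase replicate 1. The exon 17 and intron 17 site scored 34.07, also with 4 calls, and the intron 11 and exon 12 site scored 31.58, with 3 ssRNase calls in both replicates. A merged PPS carries more calls and a higher score, so scores compare sites with the same number of calls only. Over all 37 sites the median length was 75 nt, with lengths from 19 to 213 nt.

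The sites of Avil leaned towards ssRNase and were often replicated. Leaving out PPSs of 20 to 40 nt, 50 of the 63 calls in Avil at day 0 came from ssRNase (79.4%), compared with 63.9% of all calls and a median gene of 62.5%. Of the 4116 genes with 10 or more calls, 87.6% had a lower ssRNase share than Avil. Calls of both replicates were present in 48.5% of its PPSs, against 30.8% of all PPSs. Whether this share was raised by a selection that favoured dense day 0 coverage was not tested. The exonic bases in PPSs held 56.2% G and C, and those outside PPSs 53.0%. Within the CDS alone the values were closer, at 56.1% and 54.9%.

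All 6 PPSs that remained at day 2 lay in exons and overlapped day 0 sites. They fell in exons 2, 7, 11, 12, 16 and 19 and had scores from 5.4 to 9.98. The highest, at chr10:127010522-127010571, covered the first 50 nt of exon 12, which are the first 50 capitals of the intron 11 and exon 12 sequence printed above. The intronic part of that day 0 site was no longer in a PPS. The exon 16 site at chr10:127014151-127014234, with 84 nt, also ended before the intron. No day 2 PPS of Avil held both an exon and an intron base. Over the 155132 day 2 PPSs in protein-coding genes, 50.8% lay in exons only and 4.18% in an exon and an intron. For 6 sites, the absence of a crossing one is near that share.

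Seen from the day 0 sites, 6 of 37 (16.2%) overlapped a day 2 site and none overlapped a day 4 site. In the whole day 0 list, 52.8% of the PPSs overlapped one of day 2 and 50.6% one of day 4. For PPSs called in both day 0 replicates these shares were 72.1% and 68.6%. None of the 16 such sites of Avil overlapped a day 4 site. With Avil chosen on its fall and no Avil PPS in the day 4 list, its day 4 result could not have differed.

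The empty day 4 region reached beyond Avil. At day 4 no PPS lay on either strand between chromosome 10 positions 126999967 and 127060138, which is 60.17 kb. On the minus strand the nearest day 4 call at lower positions began at position 123196848. The reach of these empty stretches was determined for day 4 only. In the 20 kb downstream of Avil, its strand held 0 PPSs at days 0 and 2 as well, so no site there was lost. The calls of each call set are numbered in order along each strand, and no number was missing from Avil and 20 kb on either side in any of the 24 combinations of day, strand and call set. Across the whole day 4 gap the numbers also ran on without a break, which covers only calls removed after they were numbered.

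Among the 5 annotated neighbours within 20 kb, Tsfm changed in the same direction as Avil and Ctdsp2 did not. Tsfm, which encodes a mitochondrial translation elongation factor, lies on the minus strand at chr10:127011572-127030840 and overlaps the 3′ part of Avil. Its PPSs numbered 7 before DMSO, 4 after 2 days and 0 after 4 days. Its exonic coverage was 7.47% and 10.6% in the day 0 replicates, 1.58% in both day 2 replicates and 0% at day 4, so the pooled value fell by 12.3 points, with pairings from -10.6 to -7.47. The change was -5.75 points with scores of 10 or more, with calls of both replicates or with ssRNase calls only, and -7.47 without day 0 replicate 2. None of the Tsfm PPSs lay antisense to the body of Avil, where no PPS was found on any day. Eef1akmt3, a lysine methyltransferase gene downstream, held none.

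Ctdsp2, a phosphatase gene upstream on the strand of Avil, ends 733 nt before it. It held 10, 25 and 26 PPSs at days 0, 2 and 4. Its exonic coverage was 5.76% and 1.99% in the day 0 replicates, 3.78% and 4.76% at day 2, and 8.997% and 6.01% at day 4. The pooled change from day 0 to day 4 was 4.67 points, with pairings from 0.25 to 7.01. The dsRNase call sets gave changes from 3.46 to 6.81 points and the ssRNase call sets from -1.76 to 2.05, and the direction reversed when ssRNase calls were used alone or day 4 replicate 1 was left out. Only 1 PPS lay between the genes, at day 2, and it was called in 1 replicate.

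The microRNA gene Mir26a-2 lies within Ctdsp2. The sequence of its mature product, from RefSeq (GRCm38.p6), is printed because a day 2 site spanned it, with the seed (bases 2 to 8), which pairs with targets, in capitals.
mmu-miR-26a-5p (chr10:126995543-126995564): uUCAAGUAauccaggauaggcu
The hairpin held no PPS before DMSO, 1 after 2 days and 2 after 4 days. The day 2 PPS, at chr10:126995539-126995566, enclosed the 22 nt of the mature sequence, scored 13.54 and was called by ssRNase in both replicates. The authors' alignment kept reads that matched several places, so the reads behind this site may not be unique to Mir26a-2. The day 4 PPSs were each called by dsRNase replicate 2 alone, with scores of 5.4 and 5.57. All 3 had the 20 to 40 nt length that was left out of coverage. Mir546 also lies in Ctdsp2 and held none.

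The other 7 members of the villin and gelsolin family showed no common direction. Of the 5 with an exonic PPS on some day, 3 had higher and 2 had lower coverage at day 4, with a median change of 1.21 points against 0 over all genes, and 1 was higher and 2 lower in all replicate pairings. Capg, which encodes a protein that caps filament ends, had 9.53% and 10.0% in the day 0 replicates, 0% and 3.84% at day 2 and 0% at day 4. Like Avil it held no exonic PPS at day 4, but from 7 exonic PPSs at day 0. Vill, a villin-like gene, had 8.69% and 3.04% at day 0, 7.82% and 8.46% at day 2, and 0% and 1.41% at day 4. Its coverage was still present in both replicates at day 2, when that of Avil was down to 1 replicate.

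Svil, the gene of supervillin, was higher at day 4 in all pairings, from 2.27% at day 0 to 4.72% pooled. Flii changed by -0.62 to 0.24 points over the pairings and by 1.21 points when pooled. Gsn, the gene of gelsolin, was at 0% at day 0 and at 1.81% in 1 replicate of day 4. Vil1 and Scin held no exonic PPS. Of 4 further genes with a villin headpiece, only Dmtn, which encodes dematin of the red cell membrane skeleton, held exonic PPSs. It went the other way from Avil, with 1.69% and 2.82% in the day 0 replicates, 5.94% and 6.65% at day 2 and 10.3% and 10.1% at day 4.

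**Figure D5:**
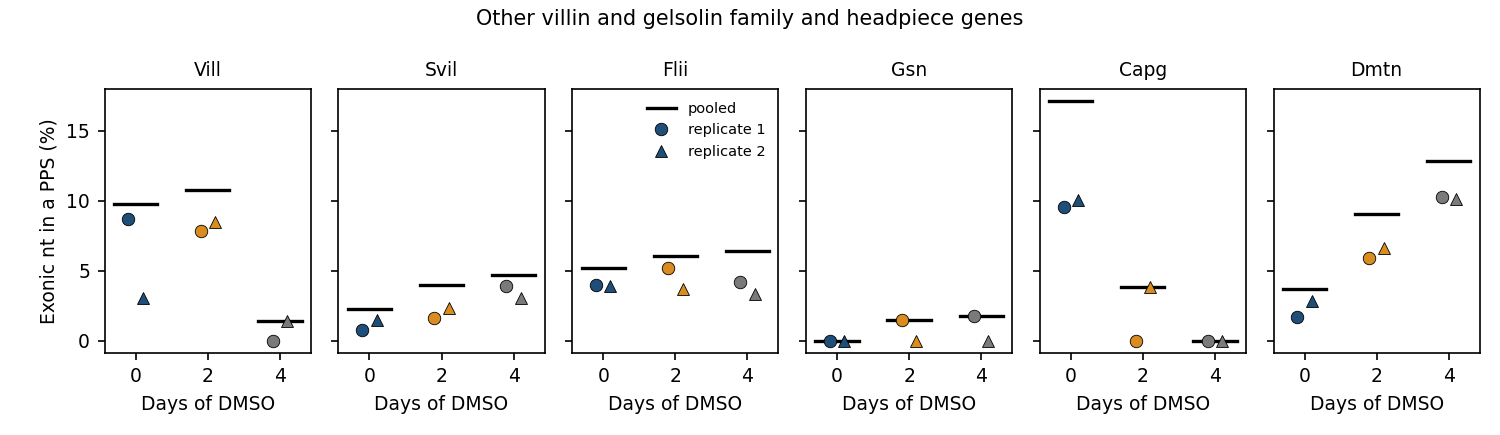
Exonic coverage (%) by day of DMSO for the other villin and gelsolin family genes and the headpiece gene Dmtn that held an exonic PPS; points are the 2 replicates and black lines the pooled lists. Capg falls from 17.1% to 0%, Vill falls only after day 2, and Dmtn climbs from 3.69% to 12.8%.

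Among 40 other regulators of actin filaments, 35 held exonic PPSs, of which 22 had higher and 13 lower pooled coverage at day 4. In all replicate pairings 11 of the 35 were higher and 7 lower, near the 30.8% and 25.4% over all genes, and the median change was 1.63 points. The 3 members with the largest changes all gained coverage, a ranking that favours gains because a loss cannot exceed the day 0 coverage. Dstn, the gene of the filament-severing protein destrin, had 0% and 8.42% in the day 0 replicates and 27.2% and 34.5% at day 4. Actg1, which encodes gamma-actin, had a pooled change of 28.9 points (pairings from 17.2 to 29.1) and Arpc4, which encodes a subunit of the Arp2/3 complex, one of 25.0 (12.1 to 24.0), both with exonic positions shared with another gene. In both genes day 4 replicate 1 was the higher, with 44.6% against 34.7% for Actg1 and 35.9% against 31.2% for Arpc4. Actb, the beta-actin gene, held no exonic PPS outside the 20 to 40 nt range on any day. Coro1a and Lcp1 held 7 and 11 such PPSs at day 0 and, like Avil, 0 at day 4. Their pooled coverage at day 0 was 14.4% and 6.88%, and both were among the 7 members lower in all pairings.

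In the erythroid list, 13 of 14 genes had higher coverage at day 4 (10 in all replicate pairings), with a median change of 20.4 points. The exception was Spi1, which is not a marker of erythroid differentiation. Over all genes with an exonic PPS, 4632 of 9550 were higher, and 30.8% in all pairings. The largest pooled changes were 68.5 points for Hbb-bs (pairings from 32.3 to 75.0), 50.9 for Hba-a1 (54.6 to 61.7) and 48.2 for Hbb-bt (0.85 to 65.4), globin genes with near-identical copies whose reads may be shared. The Hbb-bt change rested on day 4 replicate 1, with 65.4% there and 18.1% in replicate 2. Spi1, which encodes a transcription factor that is shut down as MEL cells differentiate, was lower in all pairings, with 11.3% and 7.72% in the day 0 replicates, 1.71% in both at day 2, and 0.223% and 0% at day 4.

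Over the 12 call sets, the genes with exonic coverage most like that of Avil by Euclidean distance were Cyb5r1 (distance 18.97 points), Tbc1d31 (20.7), Mst1 (22.1), Recql4 (23.4) and Gml2 (25.7), out of 6536 genes with a median distance of 58.6 points. All 5 were high at day 0 and low at day 4, which closeness to Avil required. Cyb5r1, a reductase gene, had 35.9% and 36.0% in the day 0 replicates, 4.71% and 10.7% at day 2, and 1.98% and 1.22% at day 4. Recql4, a DNA helicase gene, had 30.6% and 30.8% at day 0 and 1.17% and 0% at day 4. Of the 5, only Gml2 was listed without an exonic PPS at both later days, after 28.1% in both day 0 replicates from 4 exonic PPSs.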

How the data were processed

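The authors trimmed strand-specific single reads with cutadapt 1.2.1, aligned them to mm10 with TopHat2 2.0.10 and called PPSs for each nuclease and replicate with a modified CSAR Poisson test at a false discovery rate of 5%, each footprint library against its structure-only library. The calls of a day were merged into 1 deposited list with positions, strand, call names and a score. Read depth per library is not in the lists, so counting error could not be given.

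From the lists, PPSs were intersected by strand (minimum overlap 1 nt) with GENCODE M21 genes, and coverage was the share of nt in PPSs, leaving out PPSs of 20 to 40 nt. A replicate's coverage used PPSs with at least 1 call of that replicate. The coverage code was tested on simulated data. Python 3.11.15 with numpy 2.4.6 was used. No p-value was computed, since each day is 1 pooled list and Avil was selected on its fall. Avil, the gene lists and the alternatives were chosen with earlier results of these data known. Genes named were Avil, neighbours within 20 kb, family and headpiece members with an exonic PPS, and the 5 nearest genes. The nearest genes had at least 500 exonic nt and 3 PPSs on some day, without predicted or RIKEN symbols or shared exons. Of other lists, the 3 members with the largest change were named. Mir546, Eef1akmt3, Vil1, Scin, Actb, Spi1, Coro1a and Lcp1 were added after their values were seen.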

Additional observations from a re-analysis of the deposited data

How the results depend on the processing

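The day 4 list held no Avil PPS of any length, so day 4 was at 0 and the change from day 0 below 0 by construction in every alternative. The size of the fall depended on what was counted. Day 0 exonic coverage was 42.0% with scores of 10 or more, 36.6% with calls of both replicates, 20.01% with dsRNase calls only, 54.8% over the exons of the transcript with the longest CDS, 13.9% over the whole gene body and 38.2% over RefSeq exons (added after seeing the data), and 41.4% to 44.0% without either replicate. In the same order the change to day 4 was -42.0, -36.6, -20.01, -54.8, -13.9 and -38.2 points, with -50.6 when PPSs of 20 to 40 nt were kept and -47.4 with ssRNase calls only, and -48.9 to -41.4 without a replicate. The change to day 2 was -36.6 points with calls of both replicates, -20.01 with dsRNase calls, -48.2 over the longest-CDS transcript, -12.9 over the gene body, -33.6 over RefSeq exons and -48.9 to -35.6 without a replicate. Day 2 coverage was 0% with scores of 10 or more, with calls of both replicates and with dsRNase calls, 0.986% over the gene body, and 0% to 5.89% without a replicate. The number of Avil PPSs at day 0 (33) was 16 with calls of both replicates, 13 with dsRNase calls and 23 to 26 without a replicate. At day 2 (4) it was 0 with scores of 10 or more, calls of both replicates or dsRNase calls, and 0 to 4 without a replicate.

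The share of genes with 10 or more exonic PPSs at day 0 and none at day 4 (1.39%) was 3.03% with scores of 10 or more, 3.33% with calls of both replicates, 2.46% with ssRNase and 0.884% with dsRNase calls, and 0.94% to 2.58% without a replicate; these alternatives were added after seeing the data. The change of Ctdsp2 turned to -0.22 points with ssRNase calls only and ranged from -0.80 (without day 4 replicate 1) to 9.49 points without a replicate. The cause was not tested. No paired analysis was possible because the lists gave no test and replicate numbers were not tied across days. The lists hold no read counts, so a loss of sites cannot be set against sequencing depth.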
